A study of Mus musculus with 2 samples.

Results

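Monocyte and macrophage identity genes were examined in leukaemia cells sorted by a metabolic sensor. The group comprised 10 genes: Csf1r, C1qa, C1qb, C1qc, Mrc1, Cd14, Cd68, Adgre1, Fcgr1 and Lyz2. Members were the non-control probes whose design accession led to one of these symbols in a RefSeq gene table, with older symbols allowed. This gave 12 probes on 21 spots for 9 of the 10 genes, of 20625 genes and 39085 probes in all. No probe was matched to Cd68, so that gene has no value. Both arrays carried total RNA of acute lymphoblastic leukaemia cells of the B lineage (B-ALL) from mouse bone marrow, with an age of 8 weeks given for each sample. SoNar is a fluorescent protein sensor of NADH and NAD+ in the cytosol. The cells were sorted by its emission ratio under violet and under blue excitation. SoNar-high and SoNar-low cells each gave the RNA for 1 one-colour Agilent array. The sample titles name N-myc in place of SoNar, the groups follow the sensor's label, and beyond those titles the labels state no strain, genotype, oncogene or treatment. With 1 array per population the differences have no replicate check and no test was possible, and the 2 arrays were scanned in separate sessions, so population, sort and scan cannot be told apart.

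Monocytes and macrophages are phagocytes of the myeloid lineage. They depend on signals through the CSF1 receptor, take up opsonised or glycosylated particles through Fc and lectin receptors, sense bacterial endotoxin with the help of CD14, and in tissues are a main source of complement C1q. Bone marrow holds monocytes, their precursors and resident macrophages next to the B-lineage cells, so their transcripts can be present in RNA of a sorted marrow population. In RNA from a whole population, fewer cells of a type and less RNA per cell cannot be told apart.

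The 3 C1q genes lie next to each other on mouse chromosome 4 in the RefSeq gene table, in the order C1qb, C1qc, C1qa. Promoters were read from RefSeq on GRCm38.p6, and 6 of the 10 members were found there with promoters of 1 chromosome left out. Members missing from this count, such as Csf1r and Cd14, may therefore have an entry. C1qa, which also read lower in SoNar-high cells, was not among these 6. The 250 bases before the start site are shown for C1qb and C1qc, the C1q genes with an entry, and for Mrc1, the one member that lay higher. They span chr4:136886201-136886450 on the minus strand, chr4:136892915-136893164 on the minus strand and chr2:14229164-14229413 on the plus strand, in that order, and are written 5′ to 3′ along the gene.
C1qb: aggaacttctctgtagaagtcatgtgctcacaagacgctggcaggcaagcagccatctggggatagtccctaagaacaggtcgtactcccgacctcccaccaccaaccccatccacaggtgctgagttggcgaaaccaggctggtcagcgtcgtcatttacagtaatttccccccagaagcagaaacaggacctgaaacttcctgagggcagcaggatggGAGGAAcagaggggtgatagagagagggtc
C1qc: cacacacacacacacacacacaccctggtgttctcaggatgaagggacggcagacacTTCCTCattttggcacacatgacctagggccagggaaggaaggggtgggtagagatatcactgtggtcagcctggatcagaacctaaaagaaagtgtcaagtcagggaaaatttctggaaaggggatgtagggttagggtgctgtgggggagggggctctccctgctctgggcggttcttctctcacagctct
Mrc1: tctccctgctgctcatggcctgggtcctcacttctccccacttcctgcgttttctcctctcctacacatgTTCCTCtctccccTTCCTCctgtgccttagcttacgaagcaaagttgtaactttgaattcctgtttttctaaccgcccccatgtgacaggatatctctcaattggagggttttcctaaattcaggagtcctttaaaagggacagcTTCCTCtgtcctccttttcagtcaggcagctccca
Capitals mark GAGGAA or its reverse complement TTCCTC, which hold the core recognised by ETS factors such as PU.1. C1qb and C1qc each had 1 match and Mrc1 had 3, and 23.3% of all 32851 promoters of this length had at least 1. TATAAA and its reverse complement, a TATA box, were searched on both strands and matched none of the 3 sequences, against 12.4% of all promoters. A match describes letters in this window and shows no binding.

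Signals of most member probes were near background in SoNar-high cells and lower there than in SoNar-low cells. In SoNar-low cells 12 of the 12 probes were well above background, the scanner software's call of a spot clearly brighter than its surroundings, against 5 of 12 in SoNar-high cells. The lowest signal with that call was 46.4 intensity units in SoNar-high and 19.7 units in SoNar-low cells, and the members ranged from 11.2 to 178 units and from 41.4 to 282 units, in the same order. Over all non-control spots 44.8% were well above background in SoNar-high and 72.9% in SoNar-low cells. Of the named probes with a SoNar-low signal in the members' range, 44.6% were not well above background in SoNar-high cells, against 7 of 12 member probes. With dim probes included, 25.4% of those named probes read at least 2-fold lower in SoNar-high cells, against 7 of the 12 member probes. Losing the call was thus common among probes of this brightness. The signals of the 12 member probes summed to 674 units in SoNar-high and 1313 units in SoNar-low cells before scaling (1.65 and 2.79 times the array's 75th percentile).

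**Figure D1:**
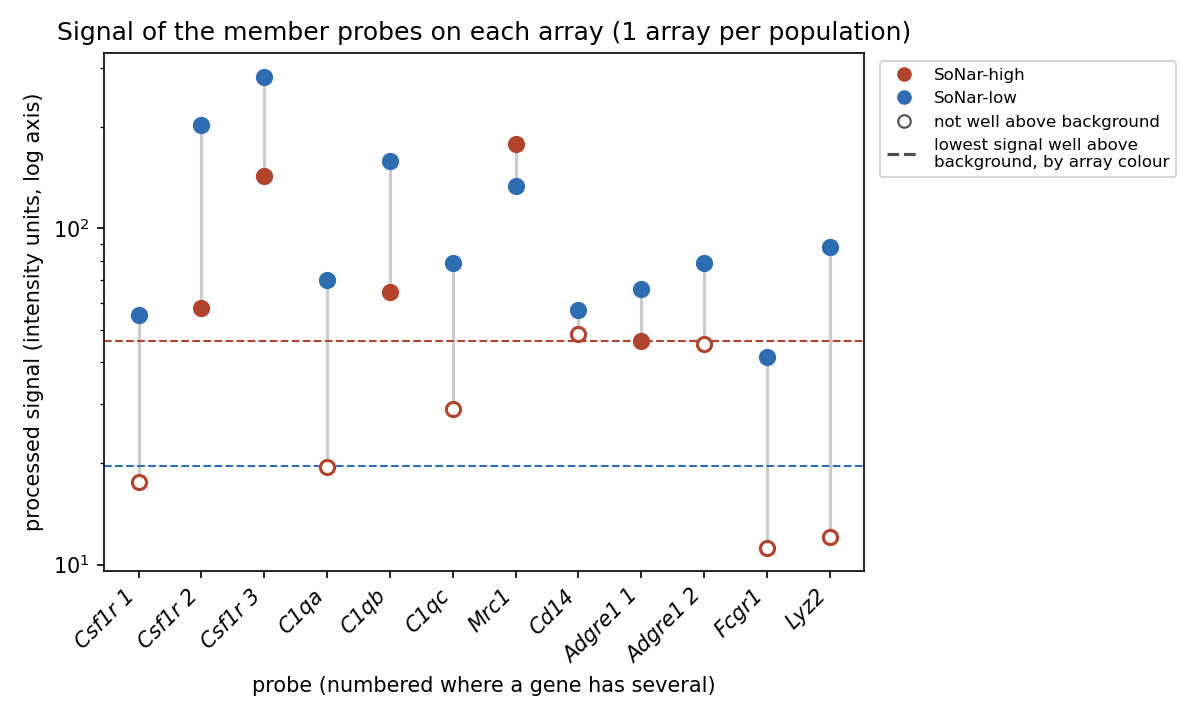
Processed signal (intensity units, log axis) of the 12 member probes on the SoNar-high (red) and SoNar-low (blue) array, with open circles for probes not well above background and a dashed line at each array's lowest signal well above background. The Mrc1 probe is brighter in SoNar-high cells and the other 11 are brighter in SoNar-low cells, with 7 red circles open.

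Differences are log2 values, SoNar-high minus SoNar-low, after each array was divided by its 75th percentile signal (409 and 470 units), and a gene's value is the average of those of its probes that were well above background on each array. A difference of 1, or 2-fold, was called by size alone. Errors after ± are, for a signal, the scanner software's own estimate for 1 spot. For a difference they were calculated from the estimates of the 2 spots compared. Neither kind covers animals or sorts.

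Csf1r encodes the receptor tyrosine kinase for CSF1 and IL-34, on which monocyte survival and macrophage differentiation depend. Its brightest probe read 143 ± 17.2 units in SoNar-high and 282 ± 28.5 units in SoNar-low cells. A second probe read 58.1 ± 11.5 and 203 ± 20.7 units. The third read 17.6 ± 11.01 units in SoNar-high cells, not well above background, and 55.1 ± 6.95 units in SoNar-low cells. All 3 probes were dimmer in SoNar-high cells. The 2 probes measured on both arrays differed by -0.78 ± 0.23 and -1.60 ± 0.32, so only one of them passed 2-fold. Their mean was -1.19, a 2.29-fold lower value in SoNar-high cells, and the SD between these 2 probes was 0.58, wider than the median SD of 0.32 between probes of a gene over all genes with several.

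The 3 C1q chains, which assemble into the recognition molecule that starts the classical complement pathway, all read lower in SoNar-high cells. C1qb, the one of them measured on both arrays, read 64.8 ± 13.0 units in SoNar-high and 158 ± 16.5 units in SoNar-low cells. Its difference was -1.09 ± 0.33, or 2.13-fold lower. C1qa read 19.5 ± 11.5 units in SoNar-high cells, not well above background, and 70.0 ± 8.26 units in SoNar-low cells. Against the SoNar-high array's lowest signal well above background this made C1qa at least 1.31-fold lower. Such a bound divides the SoNar-low value by the higher of that lowest signal and the dim probe's own value, both scaled. The unbounded C1qa difference, which sets a value against background, was -1.64.

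C1qc was the one member printed more than once, as 10 spots of 1 probe, and so shows the spread within an array. On the SoNar-high array 3 of its spots were marked as outliers, and the other 7 ran from 16.4 to 40.6 units with a median of 28.8. On the SoNar-low array the 10 spots ran from 72.3 to 85.7 units with a median of 79.3. The spots did not overlap between the arrays, with or without the outliers. How many other probes printed as 10 spots separate in this way was not counted, and spots are no replicates of a population. None of the 10 C1qc spots was well above background in SoNar-high cells and all 10 were in SoNar-low cells. After scaling, the highest kept SoNar-high spot stood at 0.0992 and the lowest SoNar-low spot at 0.154 of the array's 75th percentile. C1qc was at least 1.47-fold lower by its bound, and its unbounded difference was -1.23. The SD between spots was 0.42 (log2, n = 7 spots) in SoNar-high and 0.08 (n = 10 spots) in SoNar-low cells. Of 95 probes printed as 10 spots and seen in SoNar-low cells alone, 29.5% had an unbounded difference as far as 2-fold lower, so C1qc was one of many.

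**Figure D2:**
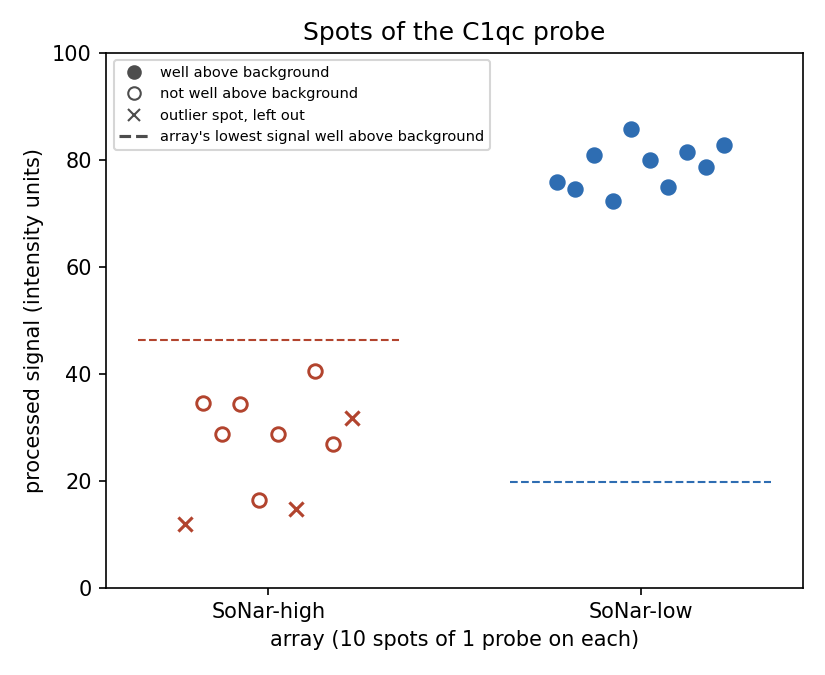
Processed signal (intensity units) of the 10 spots of the C1qc probe on each array, with outlier spots as crosses and the array's lowest signal well above background as a dashed line. The SoNar-high spots lie below 46.4 units and open, and the SoNar-low spots lie between 72.3 and 85.7 units.

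Mrc1 encodes the mannose receptor CD206, an endocytic lectin of tissue macrophages, and was the one member higher in SoNar-high cells. It read 178 ± 20.6 units there and 134 ± 14.1 units in SoNar-low cells. The difference was 0.62 ± 0.23, or 1.53-fold higher, short of 2-fold. It stood 0.39 above the median of all genes measured on both arrays.

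Adgre1, which encodes the adhesion receptor known as F4/80, was at the edge of detection. The first probe read 46.4 ± 10.3 units in SoNar-high and 66.2 ± 7.77 units in SoNar-low cells, and this SoNar-high spot was itself the lowest signal well above background on that array. The second read 45.3 ± 13.7 units in SoNar-high cells, not well above background, and 78.6 ± 9.33 units in SoNar-low cells. The difference of the first probe, -0.31 ± 0.36, was smaller than its error.

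The remaining members were seen in SoNar-low cells alone. Cd14, the co-receptor that passes endotoxin to TLR4, read 48.5 ± 12.0 units in SoNar-high and 57.0 ± 7.42 units in SoNar-low cells. Its SoNar-high signal lay above that array's lowest signal well above background, so its bound is the plain ratio and no lower limit. After scaling the values were nearly equal, 1.02-fold lower in SoNar-high cells, with an error of 0.40 on the log2 difference. That direction did not hold with other processing: the unbounded Cd14 difference was -0.03 as scaled here and lay above 0 with median scaling (0.54), quantile normalization (0.51), normexp (0.24) and the series matrix (0.61). Lyz2, the lysozyme gene of myeloid cells, read 12.1 ± 12.1 units in SoNar-high and 88.1 ± 10.05 units in SoNar-low cells, which made it at least 1.65-fold lower, the largest bound among the members. Fcgr1, the high-affinity IgG receptor CD64, read 11.2 ± 11.2 and 41.4 ± 5.99 units. No fold was taken for Fcgr1, because its scaled SoNar-low signal lay under the SoNar-high array's lowest signal well above background. The SoNar-high errors of Lyz2 and Fcgr1 were as large as their signals.

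Among the 4 members with a measured difference, Csf1r and C1qb were at least 2-fold lower and 0 at least 2-fold higher. Of all 10523 genes so measured, 4.4% lay at least 2-fold lower and 2.4% at least 2-fold higher. Dim genes were lower more often: among the 1940 genes whose mean level lay within the range of those 4 members, 7.27% were at least 2-fold lower and 2.99% at least 2-fold higher. At 1.5-fold, 2 members were lower and 1 higher (10.2% and 20.4% of all genes measured on both arrays), and at 3-fold 0 and 0 (1.26% and 0.295%). Below 0 lay 3 of the 4, against 33.1% of all genes measured on both arrays and 56.4% of the 1940. The 4 members had a median of -0.70, against 0.22 for all genes measured on both arrays and -0.08 for the 1940 at their level. With dim probes averaged in, 8 of the 9 matched members lay below 0 (6 of 9 with median scaling, quantile normalization, normexp or the series matrix), against 47.5% of all 20625 genes. For 5 of the 9 this sets a value against background and gives no measured fold. Among the 5 members seen in SoNar-low cells alone, 4 had a bound above 1-fold (with median scaling 1, Lyz2, at least 1.12-fold lower) and 0 of at least 2-fold. One of the 4 was Cd14, whose bound is its plain ratio of 1.02. Of all 5456 such genes 27.3% had a bound above 1-fold and 5.02% of at least 2-fold. Of all genes with a probe, 51% could be measured on both arrays, 26.5% were seen in SoNar-low cells alone and 0.0533% in SoNar-high cells alone, against 4, 5 and 0 of the 9 matched members.

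The size of these differences depended on the scaling. Csf1r and C1qb lay below 0 in each of 11 alternative settings that measured them, from -1.49 to -0.63 and from -1.39 to -0.45, and each stayed past 2-fold in 6 of the 11. Both lost the 2-fold call with median scaling, quantile normalization, normexp background correction and the series matrix. C1qb also lost it with loess on the level (-0.98) and, by its brightest probe, Csf1r (-0.78). Adgre1 crossed to above 0 in 4 of 11 settings, at most to 0.27. Mrc1 lay above 0 in 11 of 11 settings, from 0.32 to 1.18, and passed 2-fold with median scaling.

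**Figure D3:**
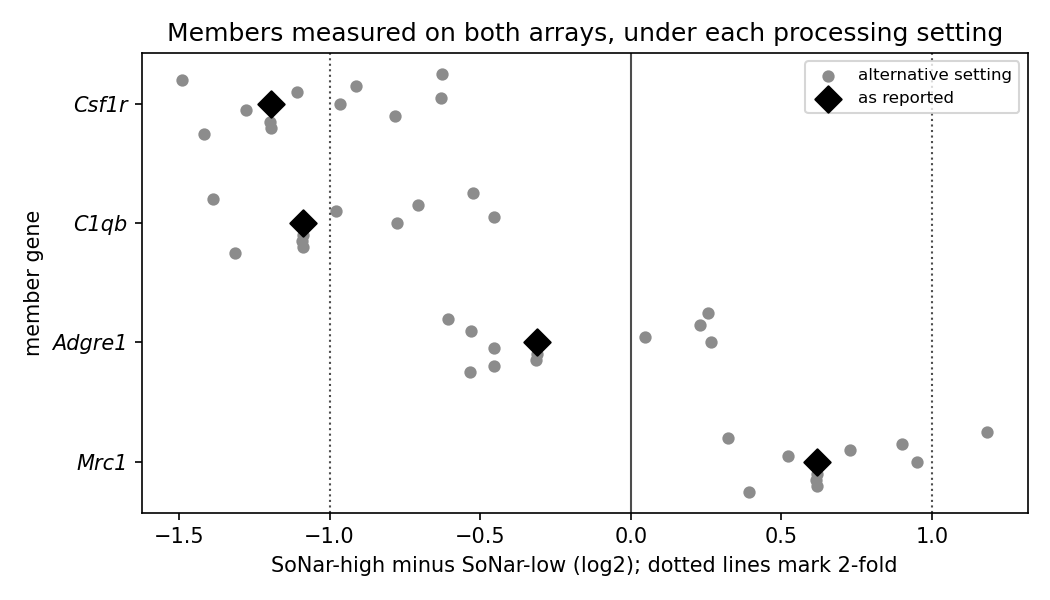
SoNar-high minus SoNar-low difference (log2) of the 4 members measured on both arrays, as reported (diamonds) and under 11 alternative settings (grey points), with dotted lines at 2-fold. Csf1r and C1qb stay left of 0 and Mrc1 right of 0 throughout, and Adgre1 falls on both sides.

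The genes that work with the members were taken from lists of the same biology. Growth factor and lineage factor genes were mostly above 0, as were genes in general. Both arrays gave a value for 9 of them, 7 above 0 and 2 below it. Over all 10523 genes with such a value, 33.1% were below 0 and the median gene stood at 0.22. Relative to that median gene, 3 of the 9 were lower. Of these 9 genes, from a list of 14, 0 were 2-fold lower or higher, with a median of 0.44. Csf1, a ligand of the receptor, was at 0.65 by the 1 of its 3 probes measured on both arrays, and Il34, the other ligand, was seen in SoNar-low cells alone. Above Csf1 stood the orphan nuclear receptor gene Nr4a1 (0.88) and the zinc finger factor gene Zeb2 (0.84, by 1 of its 2 probes), and next to it Irf8, a factor of monocyte and B-cell development (0.65). The receptor chain gene Csf2rb (-0.26) and Runx1 (-0.11) were lowest. The 2 probes of each lay on both sides of 0 (-0.62 and 0.11 for Csf2rb, -0.26 and 0.03 for Runx1). Spi1, which encodes PU.1, read 43.7 units in SoNar-high cells, not well above background, and 41.0 units in SoNar-low cells. Relative to the median gene this list lay above 0 in 12 of 12 settings.

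Of the complement genes measured on both arrays 5 lay below 0, as C1qb did, and 3 above it. Over all genes measured on both arrays 33.1% lay below 0 and 4.4% at least 2-fold lower. Among the genes at the members' level 56.4% lay below 0. Of 16 genes 8 were measured on both arrays, with 1 at least 2-fold lower, 0 higher and a median of -0.69. The opsonin gene C4b was furthest below, at -2.33 (69.1 units in SoNar-high and 400.5 units in SoNar-low cells). Next came the C1 inhibitor gene Serping1 (-0.86), the integrin gene Itgam, whose product is part of complement receptor 3 (-0.76), and the central component gene C3 (-0.76). The 2 Itgam probes measured on both arrays were at -1.32 and -0.20. Calr (0.27), Cfp, which encodes properdin (0.26), and C1qbp (0.13) lay above 0. Another 6 genes were seen in SoNar-low cells alone, among them C1ra and C1s1, the proteases that bind C1q, with no fold to give, and C2, which was at least 2.08-fold lower. Relative to the median gene the list lay below 0 in 12 of 12 settings, from -0.94 to -0.19, and its median itself turned to 0.19 with the stricter filter on dim probes, which left 4 genes.

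Endotoxin sensing genes had no common direction. Of 15 genes 6 were measured on both arrays, with 0 past 2-fold and a median of 0.23, and 6 were seen in SoNar-low cells alone. With no filter on dim probes the median over the 15 was -0.31. Ly86 (0.70), the adaptor gene Myd88 (0.39) and Tlr6 (0.26) were highest, and the adaptor gene Tirap (-0.31) and the kinase gene Irak1 (-0.17) lowest. The 3 Irak1 probes ran from -0.67 to 0.69. Tlr4, the receptor that CD14 serves, was above background in neither population, and its partner Ly96 was seen in SoNar-low cells alone. The largest bounds were Irak4 (at least 1.32-fold lower) and Ticam1 (at least 1.29-fold lower).

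Fc receptor genes and their signalling partners had no common direction. Of 10 genes 8 were measured on both arrays, with 0 past 2-fold and a median of -0.29. The shared signalling chain gene Fcer1g (-0.72) and the receptor genes Fcgr4 (-0.37) and Fcgr3 (-0.35) were below 0. The phosphatase gene Inpp5d (0.56) and the kinase gene Syk (0.54), both also active in B cells, and the inhibitory receptor gene Fcgr2b (0.10) were above it. The median lay below 0 in 7 of 12 settings, and relative to the median gene in 11 of 12.

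Scavenger, lectin and adhesion receptor genes were mostly too dim to compare. Of 19 matched genes 4 could be measured on both arrays, 9 were seen in SoNar-low cells alone and 6 on neither. Being seen in SoNar-low cells alone gave no direction. Of those 9, Mertk (45.4 and 23.8 units, SoNar-high and SoNar-low) and Trem2 (57.3 and 45.8 units) read brighter in SoNar-high cells, and the others dimmer. The measured genes were Cd300a (-0.72), the adaptor gene Tyrobp (-0.60), the scavenger receptor gene Marco (-0.42) and Adgre5 (0.35), with 0 past 2-fold and a median of -0.51 (0.06 with median scaling, and 0.34 over the 9 genes that a background call from negative controls admits, with 1 at least 2-fold higher). Not well above background on either array were Cd163, Msr1, Ccr2, Timd4, Vsig4 and Clec10a, markers of resident macrophages, monocytes or dendritic cells. The largest bound was that of Cd36 (at least 1.11-fold lower).

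Lysosomal and secreted effector genes lay on both sides of the median gene. Of 20 genes 14 were measured on both arrays, with 0 past 2-fold and a median of 0.26, close to the median gene. Of these 14, 11 lay above 0 and 3 below it, against 33.1% of all genes measured on both arrays below 0. Below the median gene lay 7 of the 14. The lysosomal membrane gene Lamp1 (0.79) and Psap (0.68) were among the highest, and many cells other than phagocytes use these genes. Mpeg1, which encodes the pore-forming perforin-2 of phagocytes, was lowest (-0.89), followed by Grn (-0.35) and Ctsd (-0.02, its 2 probes at -0.30 and 0.26). Lyz1, the neighbour of Lyz2 on chromosome 10, read 49.5 units in SoNar-high cells, not well above background, and 545 units in SoNar-low cells, at least 9.58-fold lower. Both lysozyme genes are uncertain, since the near-identical copies could share signal. Ncf1 was at least 1.28-fold lower.

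**Figure D4:**
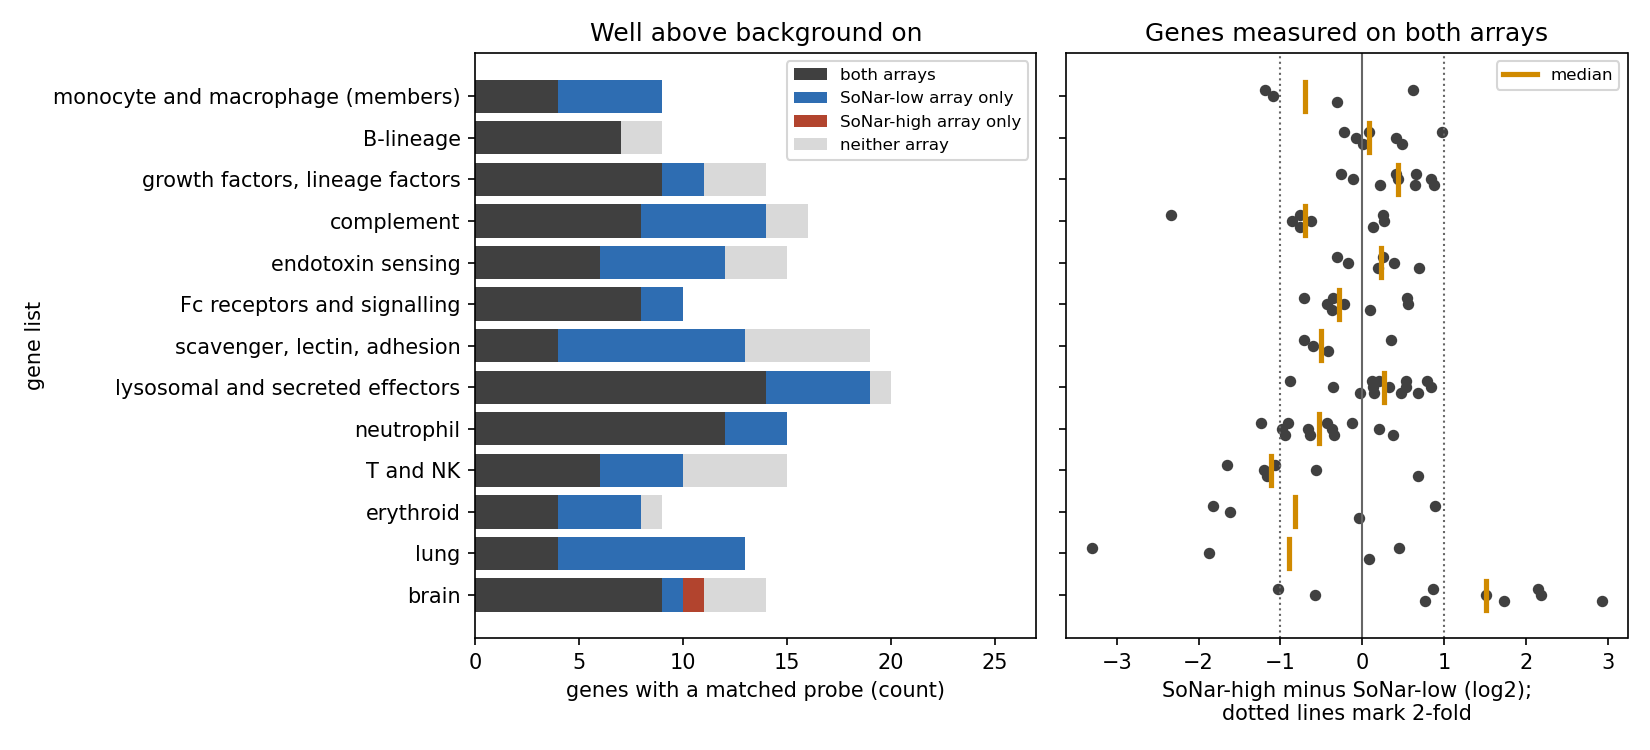
Left, genes with a matched probe by the array on which they were well above background, for the members and 12 other lists. Right, SoNar-high minus SoNar-low difference (log2) of the genes measured on both arrays, 1 point per gene, with the list median in orange and dotted lines at 2-fold. The members' median (-0.70) lies left of 0 with those of the complement, Fc receptor, scavenger, neutrophil, T and NK, erythroid and lung lists. The brain list's (1.51) lies furthest right of 0. Median scaling moves each point by 0.57 to the right, which puts the neutrophil, scavenger and Fc receptor medians at 0.03, 0.06 and 0.28. The stricter filter on dim probes turns the sign of the complement, Fc receptor, T and NK, erythroid, lung and brain medians.

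The labelled cell type was checked against B-lineage markers. Of 9 such genes 7 were well above background on both arrays, 0 passed 2-fold and the median was 0.08. Cd79b read 12625 units in SoNar-high and 14377 units in SoNar-low cells, Cd79a 440 and 379 units and Ptprc 1745 and 2335 units. Igll1, part of the surrogate light chain, and the recombinase gene Rag1 were not well above background on either array.

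The median of several other cell types' markers lay below 0 as well, though the summed signal did not fall with it in each list. Neutrophil genes had a median of -0.53 (0.03 with median scaling), with 10 of 12 measured genes below 0 and 1 at least 2-fold lower. Over 16 probes their summed signal was 46464 units in SoNar-high and 66791 units in SoNar-low cells before scaling (114 and 142 times the 75th percentile), from 10.4 to 26891 and from 22.4 to 39790 units per probe. Most of each sum came from Csf3r, the brightest (26891 and 39790 units). T and NK cell genes had a median of -1.11, with 4 of 6 measured genes at least 2-fold lower, Cd2, the brightest, at 0.68, and Cd3d, Cd8b1, Il2rb, Klrb1c and Gzmb seen on neither array. Over 19 probes their signals summed to 3868 units in SoNar-high and 4129 units in SoNar-low cells before scaling, and to 9.46 and 8.78 times the array's 75th percentile after it, with 2683 and 1903 units from 1 Cd2 probe. Erythroid genes had a median of -0.83, with 2 of 4 measured genes at least 2-fold lower and 1 gene seen on neither array. Their 13 probes summed to 28165 and 21811 units before scaling (68.9 and 46.4 times the 75th percentile), in the same order, most of it Hemgn (22791 and 14153 units), the one erythroid gene above 0. The stricter dim-probe filter left 1 T and NK gene (0.70) and 2 erythroid genes (median 0.37). Relative to the median gene the members, the neutrophil and the erythroid list lay below 0 in each setting that measured them. The part of these cells in the members' difference was not tested.

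Lung genes had a median of -0.89 over the 4 measured on both arrays (0.27 over 2 genes with the stricter filter on dim probes). Of 13 lung genes with a probe 9 were seen in SoNar-low cells alone. The surfactant genes Sftpa1 and Sftpc were at least 7.36-fold and at least 5.89-fold lower, and the club cell gene Scgb1a1 differed by -3.31, at 46.4 units in SoNar-high and 528 units in SoNar-low cells. Lamp3 (0.44) and Napsa (0.09) were bright on both arrays. The summed signal over 16 lung probes was 16247 units in SoNar-high and 17936 units in SoNar-low cells before scaling (39.7 and 38.1 times the 75th percentile), most of it from those last 2 genes. Marco and Chil3, genes of lung macrophages among other cells, were at -0.42 and 0.13. Brain genes went the other way, with 5 of 9 measured genes at least 2-fold higher, 1 at least 2-fold lower and a median of 1.51 (-0.80 over 2 genes with the stricter filter on dim probes). Their 20 probes summed to 3549 units in SoNar-high and 3667 units in SoNar-low cells before scaling (8.68 and 7.80 times the 75th percentile). Whether RNA of other tissues has a part in the members' values was not tested.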

How the data were processed

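Cy3-labelled total RNA of each population (1 array each, from 1 µg of RNA per the labels' protocols) gave 1-colour intensity values. Per the file headers these are background-subtracted spot signals from Agilent Feature Extraction 11.0.1.1, not scaled between arrays, while the submitters' processing notes name version 9.1. The series matrix deposited by the authors consists of log2 values with a median of 5.90 on each array, ranked almost as the scanner signals are and in the same direction (Spearman's rho 1.000 and 0.9998), and their centring is not stated in the sources used here. The flags deposited with each spot were used as a filter: outlier spots (190 and 506, SoNar-high and SoNar-low) and control spots were left out, and 0 spots were saturated. Spots of a probe were averaged as log2 values, and each array's 75th percentile was subtracted. A probe was taken as well above background where at least 50% of its kept spots were. Accessions were matched without versions to a RefSeq table (GRCm38, names only), which named 27130 probes. Promoters came from RefSeq, GRCm38.p6, and member promoters on 1 chromosome were left out. The members and gene lists were chosen with earlier results of these data known, and no list test was made. Named genes were all members, then by rule the 3 lowest, 3 highest and 2 largest bounds of each list and some fixed genes. For lists of other cells only a few of these are given. Fcgr3, C3, Ly96, Chil3, Lamp3, Napsa, Mertk, Trem2 and Csf3r and genes seen on neither array are named besides. Some genes that the rule would name are not reported here. Precision came from 197 probes printed as 10 spots and measured on both arrays (SD of a difference between 1 spot of each 0.15, log2). It does not cover dim probes. For the 95 such probes seen in SoNar-low cells alone the median SD between spots was 0.44 in SoNar-high and 0.21 in SoNar-low cells. The steps were tested on simulated data. Python 3.11.15 (numpy 2.4.6, pandas 2.3.3, statsmodels 0.14.6, matplotlib 3.10.9) was used, with limma 3.58.1 in R 4.3.3. Alternatives were other scalings, quantile normalization, loess (span 0.3), normexp (offset 50), the series matrix, other filters on dim probes, the brightest probe, outlier spots kept, a call of background from 153 negative controls (3 SD), centring on the median gene, and thresholds of 1.5-fold and 3-fold.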

Additional observations from a re-analysis of the deposited data

How the results depend on the processing

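The members' median (-0.70 as reported) stayed below 0 in the 11 settings that measured a member, at -0.13 with median scaling, -0.996 with the 75th percentile taken only over probes measured on both arrays, -0.24 with quantile normalization, -0.20 with normexp, -0.25 with the series matrix, -1.23 with no filter on dim probes, -0.55 with the brightest probe and -0.92 centred on the median gene. The first 2 of these scalings moved every gene by 0.57 and -0.30. The count of members at least 2-fold lower (2 as reported) was 0 with median scaling, quantile normalization, normexp and the series matrix, 1 with loess on the level and with the brightest probe, 6 with no filter on dim probes, 3 with the background call from negative controls and 0 at 3-fold. The count at least 2-fold higher (0 as reported) was 1 with median scaling and, at 1.5-fold, 1. The stricter filter on dim probes left 0 members measured and gave no value. The counts below 0 with dim probes averaged in under other scalings were added after seeing the data. No paired analysis was possible because each population has 1 array and no test was made. Signal over background limits the values: 5 of 9 members were not well above background in SoNar-high cells.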
